A study of Mus musculus with 6 samples.

Results

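The genes described here are 5 EphA receptors (*Epha2*, *Epha3*, *Epha4*, *Epha5*, and *Epha7*) and 4 ephrin-A ligands (*Efna1*, *Efna2*, *Efna4*, and *Efna5*) in cultured Schwann cells (SCs) with and without Plexin-B1. They were taken by their Ensembl identifiers, with the version left off, from a count table of 55401 genes, and all 9 were found. The other genes of both families, *Epha1*, *Epha6*, *Epha8*, *Epha10*, and *Efna3*, are given for comparison.

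The data are bulk RNA-seq of poly(A)-selected RNA from 3 WT and 3 *Plxnb1-/-* SC cultures, made to find genes that depend on Plexin-B1, a semaphorin receptor, in these cells. The SCs came from adult dorsal root ganglia and were grown on poly-L-lysine and laminin after collagenase digestion, and all 6 cultures were kept in high-glucose medium to which 10% FBS, neuregulin at 10 nM, forskolin at 2 µM, ascorbic acid, and non-essential amino acids had been added. Fibroblasts were depleted with an antibody to Thy1, and the stated purity was above 80% at passages 3 to 5. The libraries may therefore also hold RNA of other cells, whose share was not measured. Counts per library summed to 63883476, 59252048, and 70967747 across WT replicates 1, 2, and 3 and 77280964, 72461964, and 69385956 across *Plxnb1-/-* replicates 1, 2, and 3. The knockout allele is constitutive and carries a transmembrane domain-lacZ-neo cassette on a C57BL/6 background. Both the labels and the RNA methods of the study call the controls WT. Its section on mice states that WT and *Plxnb1+/-* littermates both served as controls, without naming the experiments. The labels do not state whether the 3 replicates of a genotype are separate animals or separate cultures, so the p-values below measure the spread between these samples. Neither the sex of the mice nor the strand setting of the counting is stated.

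Eph receptors are receptor tyrosine kinases that bind ephrins on the surface of neighboring cells, and the contact is often followed by repulsion. EphA receptors mainly bind ephrin-A ligands, which are held in the membrane by a lipid anchor, and signals can pass into both the receptor-bearing and the ligand-bearing cell. In the peripheral nervous system, Eph receptors and ephrins guide growing axons and take part in contact repulsion and cell sorting of SCs and fibroblasts.

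The deleted gene was read first. *Plxnb1* stood at 61.8, 45.4, and 96.4 CPM (counts relative to the size of the library, normalized by the TMM method) across WT replicates 1, 2, and 3 and at 13.1, 16.6, and 18.6 CPM across *Plxnb1-/-* replicates 1, 2, and 3. Every *Plxnb1-/-* library lay below every WT library, as the labels state, and a residual signal was left in all 3. The log2 fold change was −2.08 ± 0.25 (SE), with an adjusted p of 0.0449 in edgeR's quasi-likelihood test. The call was lost in 8 of 15 alternative settings, among them those that left out WT replicate 1 or any 1 of the *Plxnb1-/-* replicates, and the log2 fold change stayed between −2.30 and −1.74 when 1 library was left out. The counts cover the whole gene, so transcripts before and after the cassette were not separated. From its read tracks, the study reports that exons beyond the cassette lost their expression in *Plxnb1-/-*.

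The cell type label was checked against marker genes. All 12 SC markers were detected in every library, with *Sox10* between 432 and 580 CPM and *Ncam1*, the most abundant, between 887 and 990 CPM. Markers of other cells were also present. No marker of the 7 lists used here was at 0 in any library, and the only ones at or under 3 counts in some library were the neuronal *Isl1*, with 2 counts in WT replicate 1, and the endothelial *Cldn5*, with 2 counts each in WT replicate 3 and *Plxnb1-/-* replicate 1. *Thy1*, the target of the depletion, still stood between 384 and 652 CPM.

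All 9 EphA and ephrin-A genes were transcribed in every library, and none was called different between the genotypes. A call required an adjusted p below 0.05 (Benjamini-Hochberg over all 22318 tested genes) together with a log2 fold change beyond 0.25 in either direction. The members called by edgeR numbered 0 of 9, where the background over all tested genes was 0.0358% (8 genes). DESeq2 also called 0 of 9, against a background of 1.5% (335 genes). An unadjusted p below 0.05 in edgeR was found for 1 of the 9, *Epha3*, against 13.7% of all tested genes. The values of WT and *Plxnb1-/-* did not overlap for 1 of the 9, again *Epha3*, against 19.7% of all tested genes. The share of members was thus not above the background under any of these rules. The log2 fold change was above 0 for 5 members and below 0 for 4, with a median of 0.01 beside 0.00 over all tested genes. The median absolute log2 fold change was 0.09 among the members and 0.12 among all tested genes.

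**Figure D1:**
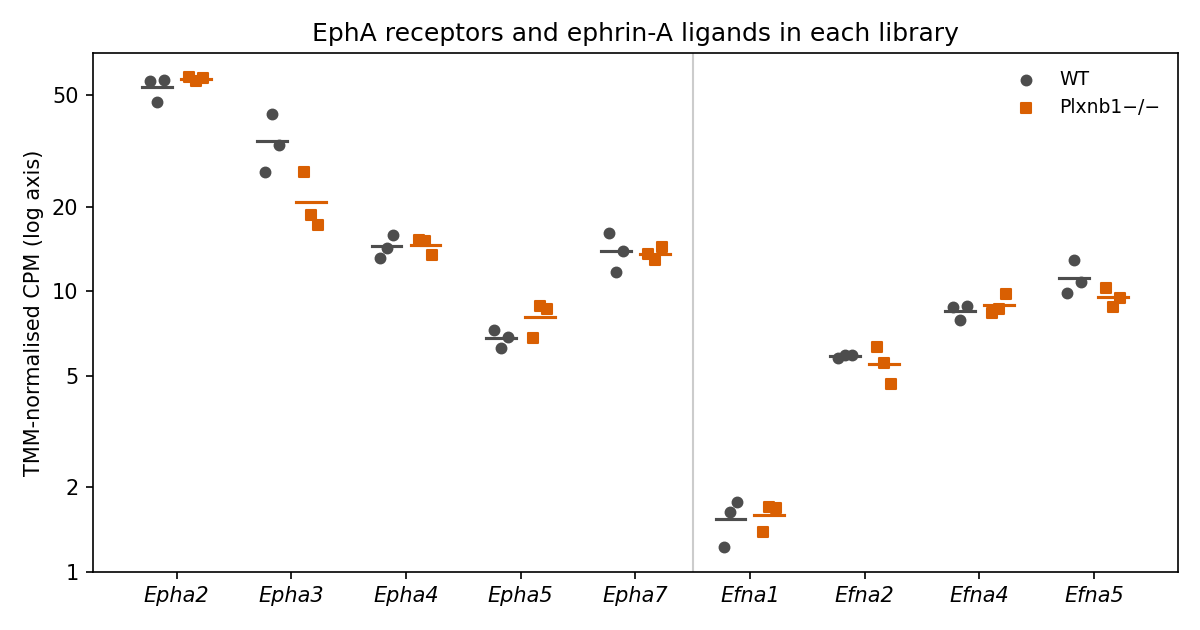
TMM-normalized CPM (log axis) of the 5 EphA receptors, left of the vertical line, and the 4 ephrin-A ligands, right of it. Each point is 1 library, circles are WT, squares are *Plxnb1-/-*, and the horizontal bar is the mean of 3. *Epha3* is the only member whose genotypes do not overlap, by the narrow gap between 26.7 and 26.6 CPM.

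Among the receptors, *Epha3* differed most between the genotypes and varied most between libraries. *Epha3* (ENSMUSG00000052504, chromosome 16, 63543534 to 63864175, minus strand, GRCm38) encodes a receptor that binds ephrin-A5 with high affinity. It stood at 26.7, 43.0, and 33.4 CPM across WT replicates 1, 2, and 3 and at 26.6, 18.7, and 17.2 CPM across *Plxnb1-/-* replicates 1, 2, and 3. WT replicate 2 was highest and *Plxnb1-/-* replicate 3 lowest, and the lowest WT library and the highest *Plxnb1-/-* library were nearly level. The level was 0.607 times that of WT, with a 95% interval of 0.449 to 0.822. On the log2 scale this was −0.72 ± 0.19 (SE), with an unadjusted p of 0.00472 and an adjusted p of 0.273 in edgeR and an adjusted p of 0.152 in DESeq2. The gene was therefore not called. It passed in 1 alternative, edgeR without a filter on low counts, at an adjusted p of 0.026, and the adjusted p ranged from 0.026 to 0.683 over all 15 alternatives. With 1 library left out, the log2 fold change lay between −0.94, without *Plxnb1-/-* replicate 1, and −0.52, without WT replicate 2.

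Marker genes of other cell types were read beside *Epha3*. Of the 8 fibroblast markers, 6 were lower in *Plxnb1-/-* and 5 of these did not overlap, beside 19.7% of all tested genes, with a median log2 fold change of −0.19. Their summed level was 16732, 20594, and 17381 CPM in the WT replicates and 15237, 16009, and 15564 CPM in the *Plxnb1-/-* replicates, most of it from collagen genes that SCs can also express, with *Col1a1* the most abundant. WT replicate 2 had the most *Epha3*, the highest fibroblast marker sum, and the smallest total count. Among the *Plxnb1-/-* libraries the order was different, since replicate 1 had the most *Epha3* and the lowest fibroblast marker sum. *Thy1* stood at 429, 652, and 490 CPM in WT and at 410, 409, and 384 CPM in *Plxnb1-/-*. It ranked the 6 libraries in the same order as *Epha3*, and it was picked after its values were seen. Of the other fibroblast markers, *Dcn* (log2 fold change −0.01), *Lum* (0.08), and *Pdgfrl* (0.06) overlapped between the genotypes. The 7 pericyte and smooth muscle markers summed to 1861, 2485, and 2062 CPM in WT and to 1810, 1806, and 1679 CPM in *Plxnb1-/-*. These sums were also in the order of *Epha3*. Here 4 of 7 were lower in *Plxnb1-/-* (median −0.13), and *Acta2* was the most abundant. The other 3, *Rgs5* (log2 fold change 0.07), *Kcnj8* (0.12), and *Myh11* (0.21), were higher in *Plxnb1-/-* with overlapping genotypes. Among the WT libraries these 3 were lowest in replicate 2, where *Epha3* was highest. The 12 SC markers went the other way, with 11 of 12 higher in *Plxnb1-/-*, 4 of them without overlap (19.7% over all tested genes), and a median of 0.19. Their sum was 4048, 3527, and 4104 CPM in the WT replicates and 4118, 4518, and 4546 CPM in the *Plxnb1-/-* replicates. Of these 27 genes edgeR called 0 and DESeq2 called 2, *Col1a1* and *Acta2* (1.5% over all tested genes), while 16 had an unadjusted p below 0.05 in edgeR (13.7% over all tested genes). Without WT replicate 2 the median log2 fold change was −0.10 for the fibroblast markers, −0.07 for the pericyte and smooth muscle markers, and 0.15 for the SC markers. Without WT replicate 1 these medians were −0.24, −0.21, and 0.22. Without *Plxnb1-/-* replicate 3, 6 of the 7 pericyte and smooth muscle markers were lower in *Plxnb1-/-*. *Thy1* was at −0.19 without WT replicate 2, beside −0.39 with all libraries. In bulk RNA, fewer cells of a type and less RNA per cell cannot be told apart, and the part of these cells in the *Epha3* difference was not tested.

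The marker sums of the remaining cell types were lower. The 10 neuron markers summed to 155 to 170 CPM in WT and 171 to 198 CPM in *Plxnb1-/-*. All 10 were higher in *Plxnb1-/-*, with a median of 0.43 and 2 genes that did not overlap. Without *Plxnb1-/-* replicate 3 the median was 0.16 and 8 of 10 were higher, and without WT replicate 1 it was 9 of 10. *Tubb3*, which is not restricted to neurons, was the most abundant. The 7 macrophage markers, led by *Csf1r*, summed to 28.4 to 31.8 CPM in WT and 33.2 to 37.8 CPM in *Plxnb1-/-*, and all 7 were higher in *Plxnb1-/-* (median 0.27, 3 without overlap). For the 6 endothelial markers the sums lay between 63.9 and 83.5 CPM, most of it from *Cdh5* alone, at 51.6 to 68 CPM. In *Plxnb1-/-* 4 of 6 were lower (median −0.19, and −0.08 without WT replicate 2). The 3 satellite glia markers, led by *Kcnj10*, summed to 762 to 883 CPM in WT and 906 to 933 CPM in *Plxnb1-/-*. All 3 were higher (median 0.06, with medians of 0.03 to 0.15 when 1 library was left out). Only 2 of 3 were higher without WT replicate 1, WT replicate 2, or *Plxnb1-/-* replicate 2. Of these 26 genes edgeR called 0, DESeq2 called 1, the macrophage gene *Cx3cr1*, 6 had an unadjusted p below 0.05 in edgeR, and 7 did not overlap, where the shares over all tested genes were 1.5% for DESeq2 calls, 13.7% for the unadjusted p, and 19.7% for values without overlap.

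*Epha2* (ENSMUSG00000006445, chromosome 4, 141301240 to 141329384, plus strand) encodes a receptor with a wide epithelial distribution that binds ephrin-A1. Its level was 56.2, 47.2, and 56.8 CPM across WT replicates 1, 2, and 3 and 58.4, 56.2, and 57.5 CPM across *Plxnb1-/-* replicates 1, 2, and 3. WT replicate 2 stood below the other 5 libraries, which lay between 56.2 and 58.4 CPM, and the genotypes overlapped. The fold was 1.07 (95% interval 0.963 to 1.2), with an adjusted p of 0.543 in edgeR. Without WT replicate 2 the log2 fold change was 0.02, beside 0.10 with all libraries.

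*Epha5* (ENSMUSG00000029245, chromosome 5, 84054761 to 84417382, minus strand) encodes a receptor best known from neurons. It stood at 7.30, 6.30, and 6.86 CPM across WT replicates 1, 2, and 3 and at 6.81, 8.88, and 8.67 CPM across *Plxnb1-/-* replicates 1, 2, and 3. The *Plxnb1-/-* replicates 2 and 3 were above all WT libraries, whereas replicate 1 lay within the WT range. The log2 fold change was 0.25 ± 0.11 (SE), with a 95% interval of −0.01 to 0.51 and an adjusted p of 0.375 in edgeR and 0.305 in DESeq2. It was 0.36 without *Plxnb1-/-* replicate 1 and 0.18 without replicate 2.

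*Epha4* and *Epha7* were close to equal between the genotypes. *Epha4* (ENSMUSG00000026235, chromosome 1, 77367185 to 77515088, minus strand), whose product binds ephrins of both classes, was at 13.2, 14.3, and 15.9 CPM in the WT replicates and at 15.2, 15.1, and 13.5 CPM in the *Plxnb1-/-* replicates. The ranges were nearly the same, and the fold of 1.01 had a 95% interval of 0.887 to 1.15 (adjusted p of 0.958 in edgeR). *Epha7* (ENSMUSG00000028289, chromosome 4, 28813131 to 28967499, plus strand), a receptor known from axon mapping, was at 16.1, 11.7, and 13.9 CPM in the WT replicates and at 13.6, 12.9, and 14.4 CPM in the *Plxnb1-/-* replicates. All 3 *Plxnb1-/-* libraries lay inside the WT range, and the fold was 0.981 (95% interval 0.828 to 1.16, adjusted p of 0.936 in edgeR). For both genes the sign of the difference turned when single libraries were left out, from −0.04 to 0.09 on the log2 scale for *Epha4* and from −0.13 to 0.10 for *Epha7*.

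**Figure D2:**
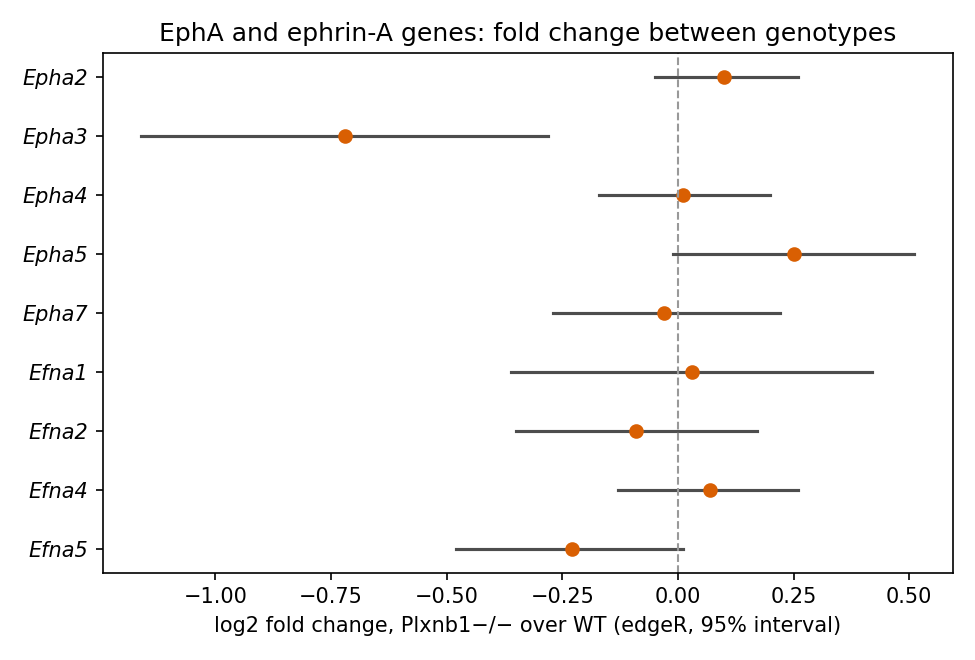
Log2 fold change of *Plxnb1-/-* over WT from edgeR for the 9 members, as points with 95% intervals (3 libraries per genotype). The interval of *Epha3*, from −1.16 to −0.28, is the only one that does not include 0, and its adjusted p was 0.273.

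Among the ligands, *Efna5* had the largest difference and *Efna4* the highest level per length. *Efna5* (ENSMUSG00000048915, chromosome 17, 62604184 to 62881317, minus strand) encodes a ligand that repels many kinds of axons. Its level was 9.91, 12.9, and 10.8 CPM across WT replicates 1, 2, and 3 and 10.3, 8.80, and 9.45 CPM across *Plxnb1-/-* replicates 1, 2, and 3. WT replicate 2 was again the highest, and *Plxnb1-/-* replicate 1 stood above WT replicate 1, so the genotypes overlapped. The log2 fold change was −0.23 ± 0.11 (SE), with a 95% interval of −0.48 to 0.01 and an adjusted p of 0.375 in edgeR and 0.3 in DESeq2. Without WT replicate 2 it was −0.12.

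*Efna4* (ENSMUSG00000028040, chromosome 3, 89333390 to 89338028, minus strand) was at 8.80, 7.94, and 8.85 CPM across WT replicates 1, 2, and 3 and at 8.37, 8.66, and 9.82 CPM across *Plxnb1-/-* replicates 1, 2, and 3. WT replicate 2 was lowest and *Plxnb1-/-* replicate 3 was highest. Between them, *Plxnb1-/-* replicates 1 and 2 lay below WT replicates 1 and 3, so the genotypes overlapped. Its fold was 1.05 (95% interval 0.915 to 1.2, adjusted p of 0.771 in edgeR). Its log2 value of 0.07 ranged, with 1 library left out, between −0.00, without *Plxnb1-/-* replicate 3, and 0.11, without *Plxnb1-/-* replicate 1. Of its 1599 bp of exon, 168 bp overlap the antisense gene *4731419I09Rik*, whose reads could be mixed with those of *Efna4* if strand was not used in counting.

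*Efna2* (ENSMUSG00000003070, chromosome 10, 80179482 to 80190010, plus strand) had almost no spread in WT. It stood at 5.80, 5.93, and 5.93 CPM in the WT replicates and at 6.34, 5.56, and 4.69 CPM in the *Plxnb1-/-* replicates. The *Plxnb1-/-* libraries lay on both sides of WT, and the SD was 0.0763 CPM in WT and 0.826 CPM in *Plxnb1-/-*. The fold was 0.94 (95% interval 0.787 to 1.12, adjusted p of 0.772 in edgeR). On the log2 scale the difference of −0.09 was −0.20 without *Plxnb1-/-* replicate 1 and turned to 0.02 without replicate 3.

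*Efna1* (ENSMUSG00000027954, chromosome 3, 89271733 to 89281142, minus strand) had the fewest counts of the 9, between 79 and 126 per library. It was at 1.23, 1.64, and 1.78 CPM in the WT replicates and at 1.39, 1.70, and 1.69 CPM in the *Plxnb1-/-* replicates. The *Plxnb1-/-* libraries lay within the WT range. The fold of 1.02 had the widest interval among the ligands, 0.782 to 1.34 (adjusted p of 0.949 in edgeR). Its log2 fold change of 0.03 lay between −0.10, without WT replicate 1, and 0.15, without WT replicate 3, and its sign also turned without *Plxnb1-/-* replicate 2 or 3.

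The levels of different genes were compared as CPM per kb of exon, since longer genes collect more reads. Over the 6 libraries *Epha2* was highest at 11.9 ± 0.874 (SD) CPM per kb, followed by *Efna4* at 5.47 ± 0.392, and the ranges of these 2 genes and of *Epha3* did not overlap. *Epha3* (3.18 ± 1.1 CPM per kb), *Efna2* (2.68 ± 0.263), and *Efna5* (2.57 ± 0.356) could not be ordered, since their ranges overlapped and *Epha3* was above *Efna2* in 4 of 6 libraries. Below them stood *Epha4* at 1.8 ± 0.128, *Epha7* at 1.39 ± 0.15, *Efna1* at 0.859 ± 0.115, and *Epha5* at 0.446 ± 0.0634 CPM per kb, each of these apart from its neighbors in every library. The coefficient of variation over the 6 libraries was 34.8% for the level of *Epha3* and between 7.07% and 14.2% for the levels of the other 8 members.

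The 5 receptors together reached 18.8, 18.4, and 19.8 CPM per kb in the WT replicates and 19.2, 17.9, and 17.9 CPM per kb in the *Plxnb1-/-* replicates. The summed level thus overlapped between the genotypes. *Epha2* took 63.9%, 54.9%, and 61.5% of the receptor sum in the WT replicates and 64.9%, 67.3%, and 68.6% in the *Plxnb1-/-* replicates. *Epha3* took 16.3%, 26.9%, and 19.4% in the WT replicates and 15.9%, 12%, and 11.1% in the *Plxnb1-/-* replicates. The genotypes did not overlap in either share, but WT replicate 1 and *Plxnb1-/-* replicate 1 were close in both. The shares are parts of the same sum, so they are not independent of each other, and no test was run on them. The 4 ligands summed to 11.1 to 12 CPM per kb, and *Efna4* took between 41.9% and 52.9% of that sum. The receptor sum was 1.54 to 1.67 times the ligand sum in all 6 libraries on this scale, and 1.98 to 2.15 times per kb of the longest transcript.

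The deposited FPKM values give another order. The length behind them was the whole gene, introns included, in 99.5% of the 14948 genes compared (within 1%), which lowers genes with long introns. On that scale *Epha3*, with a span of 320642 bp and 8692 bp of exon, was at rank 7 of 9 and *Efna5* at rank 8, whereas per kb of exon both lay with *Efna2* in the group below *Efna4*. *Efna1*, with a span of 9410 bp, was at rank 4 instead of 8. *Epha2* and *Efna4* were at ranks 1 and 2 on both scales. The ratio of the receptor sum to the ligand sum turned on the FPKM scale, to between 0.802 and 0.913.

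**Figure D3:**
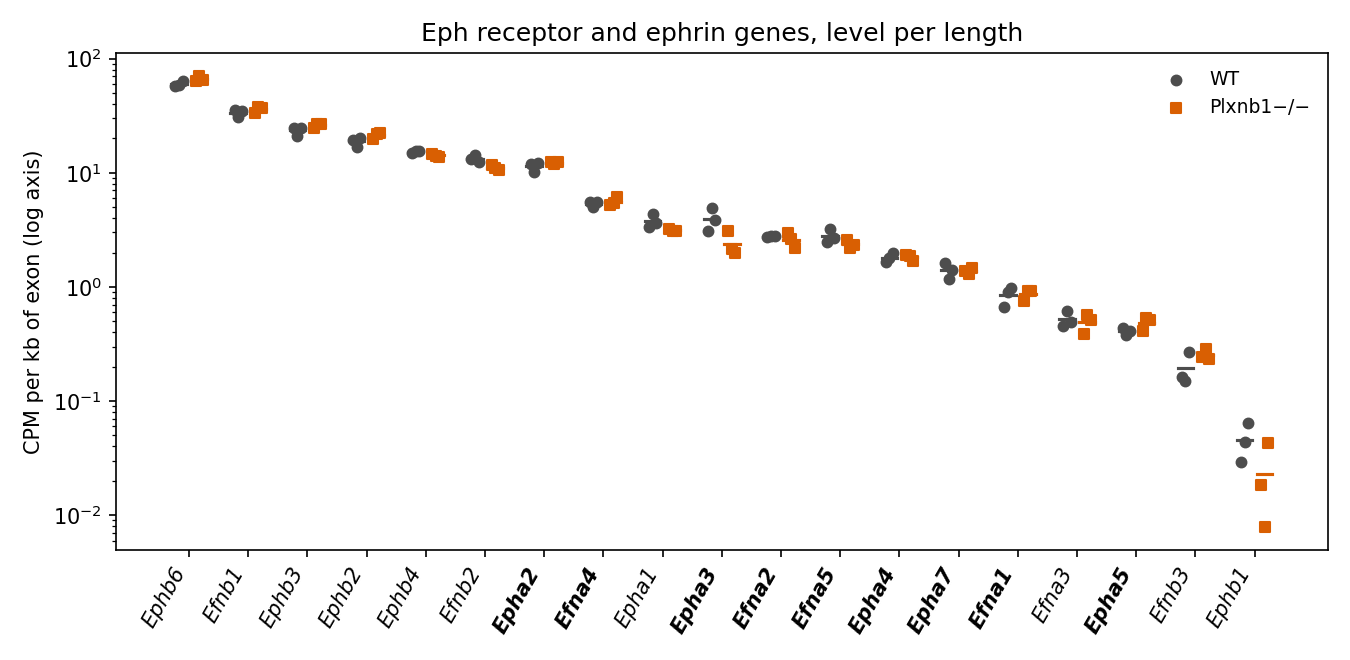
CPM per kb of exon (log axis) for the 19 tested Eph receptor and ephrin genes, in order of their mean over 6 libraries. Points are single libraries, circles are WT, squares are *Plxnb1-/-*, bars are means of 3, and the 9 members are in bold. *Epha2*, at 11.9 CPM per kb, lies beside *Efnb2* at 12.2, and the other 8 members lie below both.

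Of the other EphA and ephrin-A genes, *Epha1* and *Efna3* were transcribed and *Epha6*, *Epha8*, and *Epha10* were at or near the detection floor. *Epha1*, a receptor that binds ephrin-A1, was at 13.2, 17.0, and 14.4 CPM in the WT replicates and at 12.7, 12.2, and 12.1 CPM in the *Plxnb1-/-* replicates. All 3 *Plxnb1-/-* libraries lay below WT, with WT replicate 2 highest as for *Epha3* and *Efna5*, and the log2 fold change of −0.27 ± 0.09 (SE) had an adjusted p of 0.295 in edgeR and was −0.16 without WT replicate 2. Of its 3928 bp of exon, 236 bp overlap *Zyx* on the other strand. *Efna3* was at 0.946 to 1.5 CPM, its genotypes overlapped, and 344 bp of its 2434 bp of exon overlap the antisense gene *Gm15998*. *Epha6* had 0 to 4 counts per library, *Epha8* 0 to 2, and *Epha10* 0 to 2, where 3 counts correspond to 0.0388 to 0.0506 CPM, a floor that covers counting error only. Of these 5 genes 2 were tested, edgeR and DESeq2 called 0 of them (0.0358% and 1.5% over all tested genes), and 1, *Epha1*, had an unadjusted p below 0.05 in edgeR (13.7% over all tested genes) and did not overlap (19.7% over all tested genes).

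*Efna1*, *Efna3*, and *Efna4* lie next to each other on the same strand of chromosome 3, with 32.8 kb between *Efna1* and *Efna3* and 10.4 kb between *Efna3* and *Efna4*. Their levels differed, at 0.859, 0.504, and 5.47 CPM per kb, and none of the 3 was called.

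Against the EphB receptors and ephrin-B ligands, the summed level was lower. The 5 EphB receptors reached 112 to 134 CPM per kb, with *Ephb6* the highest of them at a mean of 63.3 CPM per kb over the 6 libraries. Their sum was 5.26, 4.94, and 5.28 times that of all 9 EphA receptors in the WT replicates. In the *Plxnb1-/-* replicates it was 5.49, 6.38, and 6.09 times that sum. The 3 ephrin-B ligands reached 3.65 to 4.18 times the sum of all 5 ephrin-A ligands. These ratios were taken per kb of exon. Of the 8 genes edgeR called 0, and 5 had an unadjusted p below 0.05 in edgeR (13.7% over all tested genes). The genotypes did not overlap for 4 of the 8 (19.7% over all tested genes). DESeq2 called 1 (beside 1.5%), *Efnb2* (log2 fold change −0.26 and adjusted p 0.0173 in DESeq2).

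Genes with the most similar profile over the 6 libraries were sought among 14983 genes with a mean of at least 1 CPM, by the root mean square difference of centered log2 CPM. For *Epha3* the closest was *Rnf128* (0.0668, where the profile of *Epha3* itself deviated by 0.455 from its mean), which stood at 2.91, 4.37, and 3.63 CPM in WT and at 2.81, 2.18, and 1.77 CPM in *Plxnb1-/-*. It was lower in every *Plxnb1-/-* library, with an adjusted p of 0.273 in edgeR. *Mcpt-ps1* (0.131) and *Macc1* (0.133) followed at a larger distance. For *Epha2* the closest genes were *Fbxl21* (0.0181), *Gm16229* (0.0189), and *Gm2895* (0.0204), beside a deviation of *Epha2* of 0.103, and for *Efna4* they were *Trrap* (0.0198), *Bahcc1* (0.0232), and *Sh3bp5l* (0.0245), beside a deviation of 0.0926.

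Genes that carry or limit Eph signals were read from 3 lists. Of 35 such genes 34 were tested, and edgeR and DESeq2 called 0 of them, with 9 at an unadjusted p below 0.05 in edgeR, beside 13.7% of all tested genes. The log2 fold change was above 0 for 21 and below 0 for 13, with a median of 0.01 beside 0.00 over all tested genes, and 13 of 34 did not overlap between the genotypes, beside 19.7% of all tested genes.

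Among 20 adaptors and kinases, 19 were tested, 0 were called by either tool, 4 had an unadjusted p below 0.05 in edgeR (13.7% over all tested genes), 5 did not overlap (19.7% over all tested genes), and the median log2 fold change was 0.01. *Anks1*, an adaptor that binds activated Eph receptors, was at 92.9, 80.8, and 89.1 CPM in the WT replicates and at 94.8, 107, and 110 CPM in the *Plxnb1-/-* replicates. *Grb10*, an adaptor of receptor tyrosine kinases, was at 372, 442, and 382 CPM in the WT replicates and at 353, 340, and 334 CPM in the *Plxnb1-/-* replicates. Neither gene overlapped between the genotypes, and their log2 fold changes of 0.25 ± 0.07 and −0.22 ± 0.07 (SE) had adjusted p-values of 0.273 and 0.284 in edgeR. Without WT replicate 2 the log2 fold change of *Grb10* was −0.14.

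Of 3 receptors that can pass ephrin-A signals into the ligand-bearing cell, 0 were called by either tool, and 2 had an unadjusted p below 0.05 in edgeR (13.7% over all tested genes) and did not overlap (19.7% over all tested genes), with a median log2 fold change of 0.21. *Ngfr*, the p75 receptor, which is also among the SC markers, was at 212, 165, and 204 CPM in the WT replicates and at 217, 248, and 249 CPM in the *Plxnb1-/-* replicates. *Ntrk2* was at 133, 109, and 129 CPM in the WT replicates and at 136, 148, and 146 CPM in the *Plxnb1-/-* replicates. Both were lowest in WT replicate 2, like most SC markers, and did not overlap, with log2 fold changes of 0.30 ± 0.09 and 0.21 ± 0.07 (SE) and adjusted p-values of 0.286 and 0.296 in edgeR. Without that library the log2 fold changes were 0.20 and 0.13. *Ret* was at 12.0 to 19.7 CPM, with overlapping genotypes.

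The 12 proteases and phosphatases that cleave Eph receptors and ephrins or remove their phosphate groups were all tested, and 0 were called by either tool, with a median log2 fold change of 0.00. An unadjusted p below 0.05 in edgeR was found for 3 (13.7% over all tested genes), and 6 did not overlap (19.7% over all tested genes). *Adam10*, the protease that cuts ephrin-A ligands from the membrane after receptor contact, was at 594, 467, and 565 CPM in the WT replicates and at 638, 615, and 606 CPM in the *Plxnb1-/-* replicates. *Ptprb*, a phosphatase, was at 2.66, 3.60, and 2.70 CPM in the WT replicates and at 2.65, 2.51, and 2.55 CPM in the *Plxnb1-/-* replicates. WT replicate 2 was the outermost WT library in both, and their log2 fold changes of 0.19 ± 0.08 and −0.21 ± 0.14 (SE) had adjusted p-values of 0.348 and 0.531 in edgeR. Without it the log2 fold changes were 0.10 for *Adam10* and −0.05 for *Ptprb*, and with any 1 library left out they ranged from 0.10 to 0.27 and from −0.29 to −0.05.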

How the data were processed

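Per the labels, the authors trimmed reads with Trim Galore 0.6.5, aligned them to mm10 with Bowtie2 2.4.1, which does not span introns, removed duplicates with SAMtools 1.10, and deposited featureCounts counts on exons of 55401 genes, not normalized. FPKM values, likewise deposited, were used here for alternatives and a comparison of levels. Symbols, positions, and exon lengths came from GENCODE vM21 on GRCm38, which matched 55141 genes. The study counted reads on GENCODE vM25, so the levels per kb divide its counts by exon lengths of another release.

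The filter kept 22318 genes with 2 or more counts in 5 or more of 6 libraries, which were tested with edgeR 4.0.16 (TMM, quasi-likelihood, genotype as the only term, R 4.3.3), with DESeq2 1.42.0 and limma 3.58.1 as alternatives. DESeq2 gave no adjusted p for some listed genes with few counts, such as *Ephb1* and *Efnb3*. These were counted as not called, and all 9 members had an adjusted p. SEs came from the log2 fold change and the F statistic. The fits were tested on simulated data. Summaries used Python 3.11.15.

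The members and lists were chosen with earlier results of these data known, and some signalling genes listed in the design are not reported here. Named genes are *Plxnb1*, both Eph families, in each signalling list the called genes and the 2 non-overlapping genes with the largest log2 fold change, the most abundant and the near-absent markers, and the 3 closest profiles. *Thy1*, *Sox10*, *Ret*, *Cx3cr1*, *Dcn*, *Lum*, *Pdgfrl*, *Rgs5*, *Kcnj8*, and *Myh11* were added after their values were seen. Alternatives were other size factors, robust dispersion, other filters, no fold cutoff, a replicate block, limma on log2 FPKM, other lengths, and each library left out.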

Additional observations from a re-analysis of the deposited data

How the results depend on the processing

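edgeR called 8 genes in all. It called 296 without a filter on low counts, DESeq2 called 335, limma called 3 on log2(FPKM + 0.1) and 3 on log2(FPKM + 1), and 4 to 25 were called with 1 library left out, the most without WT replicate 2. The causes were not tested. Of the EphA and ephrin-A genes 0 were called, and the count was 1 (*Epha3*) without a filter on low counts and 0 in the other alternatives. Over 135 fits of the 9 genes in 15 alternatives, 125 kept the sign of the log2 fold change, and 10, none of them called, changed it, all with 1 library left out. On log2(FPKM + 1) the log2 fold change of *Epha3* was −0.05, since its mean FPKM of 0.086 is far below the pseudocount. With a replicate block edgeR called 5 genes in all and 0 of the 9. The labels give no pairing of equal replicate numbers. Deviations from the group means correlated across genes, which are not independent replicates, at −0.022, 0.008, and 0.065 for equal numbers and at −0.053 to 0.049 for unequal numbers. *Epha2* held 39.2% of the summed level of the 9 genes per kb of exon, 39.3% per kb of the longest transcript, and 40.2% in FPKM. In FPKM the share of *Efna4* was 38.5% instead of 18.1%, that of *Epha3* 1.78% instead of 10.5%, and that of *Efna5* 0.768% instead of 8.49%. With the longest transcript only *Efna1* and *Epha5* traded places in the order.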
